A study of Mus musculus with 9 samples.

Results

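The 5 subunits of the transcription factor NF-kB (Nfkb1, Nfkb2, Rela, Relb and Rel) and 5 genes that restrain or route its activation (Nfkbia, Nfkbie, Tnfaip3, Map3k14 and Traf3) were followed in cultured mouse macrophages. The members were taken by gene name from the RNA-seq table, where all 10 were found among 28379 genes, and all 10 passed the filter on low counts that left 17002 genes for testing.

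The cells were bone marrow-derived macrophages (BMDMs), primary cells flushed from the bone marrow of mice given as C57BL/6 in the series description and as C57BL/6J, 10 weeks old, in the study's methods. Every group received 20 ng/ml of M-CSF, the growth factor that keeps macrophages and their precursors alive, and was harvested at 48 h. The PBS group received neither RANKL nor vitamins, the RANKL group received 100 ng/ml of RANKL, and RANKL + Vit D + K stands for the same dose of RANKL given together with 1000 nM of vitamin D as calcitriol and with vitamin K as menaquinone-4 (MK4), for which the labels give 20 μM and the study's methods another dose. Each group held 3 libraries, and neither vitamin was given without the other or without RANKL. The methods describe libraries made from pooled RNA and no source states that the replicates were separate cultures or animals, so every p-value measures only the spread between these libraries.

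RANKL is the cytokine that turns macrophage precursors into bone-resorbing osteoclasts, and its receptor RANK signals to NF-kB through both known branches. In the canonical branch an IKK kinase complex marks the IkB inhibitors for destruction, which frees dimers of Rela or Rel with the processed product of Nfkb1. In the non-canonical branch the kinase NIK (gene Map3k14), which Traf3 otherwise sends for degradation, drives processing of the Nfkb2 precursor to a form that pairs with Relb. Several of these genes are themselves NF-kB targets, so that the pathway feeds back on its own inhibitors.

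Total counts lay between 65915112 and 68229647 per library, so depth was nearly equal, and the 10 members were counted between 106 and 16042 times in a library. The labelled treatments were visible in genes outside the pathway: 9 of 10 osteoclast markers were higher with RANKL than with PBS (8 with the replicate block), 8 of 10 were lower and 1 (Itgb3) higher with the vitamins than with RANKL, and Cyp24a1, the vitamin D-induced enzyme that degrades calcitriol, was at least 24.1-fold higher with the vitamins than with RANKL alone, where it had 0 counts (floor of 3 counts in each library). A pair of libraries stood apart within their groups. Replicate 2 of RANKL + Vit D + K was the library of its group nearest to the RANKL mean for 8 of 10 members and for 59.2% of all genes tested, and replicate 2 of RANKL was the library of its group farthest from the PBS mean for 10 of 10 members and for 56.0% of all genes. The summed FPKM (a level corrected for gene length and for library size) of 8 macrophage markers was 26412 to 30648 with PBS, 16672 to 24298 with RANKL and 4533 to 11576 with RANKL + Vit D + K, and none of the 8 was at 0. Most of this sum was Lyz2, the lysozyme of myeloid cells, and the other 7 summed to 2232 to 2410, 1670 to 2079 and 1343 to 1408 FPKM in the same order of groups. With RANKL against PBS 1 of the 8 (Csf1r) was called lower and 0 higher by edgeR. The lower count was 2 with the replicate block and 0 with median-of-ratios scaling, and DESeq2 called 3 lower and 1 higher. With the vitamins against RANKL 6 were lower, Cd68 was higher and Itgam was not called by edgeR. The summed FPKM of the 10 osteoclast markers was 23.6 to 31.8 with PBS, 489 to 1022 with RANKL and 70.4 to 100.4 with the vitamins. The summed FPKM of 8 neutrophil markers was 11.1 to 128 with PBS, 11.3 to 148 with RANKL and 0.551 to 1.72 with the vitamins, where Ly6g, Camp, Ltf, Elane and Mpo were at 0 counts in all libraries. In bulk samples such as these, fewer cells of a type and less RNA per cell cannot be told apart. The part of these marker differences in the results on the members, and on the further genes and targets of the pathway, was not tested.

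The sequences before the start sites are shown so that the letters of the motif bound by NF-kB can be seen beside the values. Start sites were those of RefSeq on GRCm38.p6, and 8 of 10 members had an entry with 300 bases around at least 1 start. Nfkb1 and Relb had none. The NF-kB consensus (kB) motif of 10 bases was searched on both strands, and overlapping matches were joined. It occurred in a window of 6 members (Nfkb2, Nfkbia, Nfkbie, Traf3, Tnfaip3 and Rel), beside 5.14% of all 27025 genes with a window. It was in 8 of the 11 windows of the 8 members, beside 4.51% of all 32851 windows. Nfkb2 held 3 of these windows with a match. Its windows 2 and 3 overlap and share a match, which is counted in both, and only its window 1 is printed below. For the 4 members that fell when the vitamins were added to RANKL, the 250 bases before the start follow, 5′ to 3′, with motif matches in capitals.
Nfkb2, chr19:46304487-46304736, plus strand: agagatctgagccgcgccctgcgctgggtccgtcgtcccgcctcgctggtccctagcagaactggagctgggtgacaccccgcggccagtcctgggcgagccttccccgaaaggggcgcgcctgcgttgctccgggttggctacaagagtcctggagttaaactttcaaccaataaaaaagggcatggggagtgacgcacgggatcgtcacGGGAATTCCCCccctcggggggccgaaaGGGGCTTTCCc
Nfkbia, chr12:55492648-55492897, minus strand: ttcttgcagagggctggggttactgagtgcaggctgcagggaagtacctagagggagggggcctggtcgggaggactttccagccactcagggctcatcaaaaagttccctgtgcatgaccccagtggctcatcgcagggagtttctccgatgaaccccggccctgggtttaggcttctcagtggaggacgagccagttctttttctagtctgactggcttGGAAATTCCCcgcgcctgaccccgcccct
Nfkbie, chr17:45555450-45555699, plus strand: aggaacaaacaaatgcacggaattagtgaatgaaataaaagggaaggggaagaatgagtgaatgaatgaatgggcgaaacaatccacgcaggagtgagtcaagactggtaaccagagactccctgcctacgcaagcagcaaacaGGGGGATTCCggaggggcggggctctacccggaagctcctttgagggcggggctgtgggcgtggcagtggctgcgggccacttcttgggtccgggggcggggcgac
Map3k14, chr11:103267402-103267651, minus strand: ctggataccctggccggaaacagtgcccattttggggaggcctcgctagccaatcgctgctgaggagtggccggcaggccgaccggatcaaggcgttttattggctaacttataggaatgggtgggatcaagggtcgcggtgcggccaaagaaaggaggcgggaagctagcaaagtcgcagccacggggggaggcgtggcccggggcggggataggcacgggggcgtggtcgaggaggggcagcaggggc
Nfkb2 held 2 matches in the last 39 bases before this start, which lies inside the gene as the table bounds it, Nfkbia held 1 at 29 to 20 bases before its start and Nfkbie held 1 at 106 to 97 bases before its start. The Map3k14 window held none, nor did the Rela window. The matches of the other 3 members follow as short stretches around the motif, again in capitals, to show how the matched letters differ from gene to gene.
Traf3, chr12:111166345-111166384, plus strand: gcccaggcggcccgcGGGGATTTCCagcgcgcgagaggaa
Tnfaip3, chr10:19015511-19015550, minus strand: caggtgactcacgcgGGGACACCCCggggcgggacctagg
Tnfaip3, chr10:19015398-19015437, minus strand: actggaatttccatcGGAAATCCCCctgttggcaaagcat
Rel, chr11:23771036-23771076, minus strand: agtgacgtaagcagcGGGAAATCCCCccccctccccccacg
In Traf3 the match ended at the last base before the start. Tnfaip3 held its matches at 125 to 116 and at 12 to 3 bases before the start, and Rel at 92 to 82 bases before it. A match is a stretch of letters, and no binding was measured.

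The inhibitor Nfkbia was the most abundant member in PBS, with 47.1 ± 2.27 FPKM (SD, n = 3), followed by the subunits Rela with 27.9 ± 1.08 FPKM, Nfkb2 with 19.2 ± 2.88 FPKM and Nfkb1 with 13.7 ± 1.13 FPKM, and each of these neighbours had ranges that did not overlap. Nfkbie, Relb and Rel came next, at 9.72, 9.04 and 8.67 FPKM with overlapping ranges, then Traf3 at 6.62 FPKM, and Tnfaip3 at 4.8 and Map3k14 at 4.31 FPKM, which overlapped. With RANKL, Nfkb2 passed Rela to the second place, at 38.9 ± 7.03 FPKM against 26.0 ± 0.712 FPKM, and Traf3 reached the band of Nfkb1, Relb, Nfkbie and Rel, each of which overlapped its neighbour in the order. With RANKL + Vit D + K, Nfkbia, Nfkb2 and Rela came first, where Nfkb2 overlapped both of the others and those did not overlap each other, while Nfkbie and Map3k14 formed the bottom at 2.52 ± 2.81 FPKM and 1.87 ± 0.447 FPKM. Spread differed widely between members. The coefficient of variation in the vitamin group was 1.92% for Traf3 and 111% for Nfkbie, whose 3 libraries had 0.462, 5.72 and 1.39 FPKM.

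**Figure D1:**
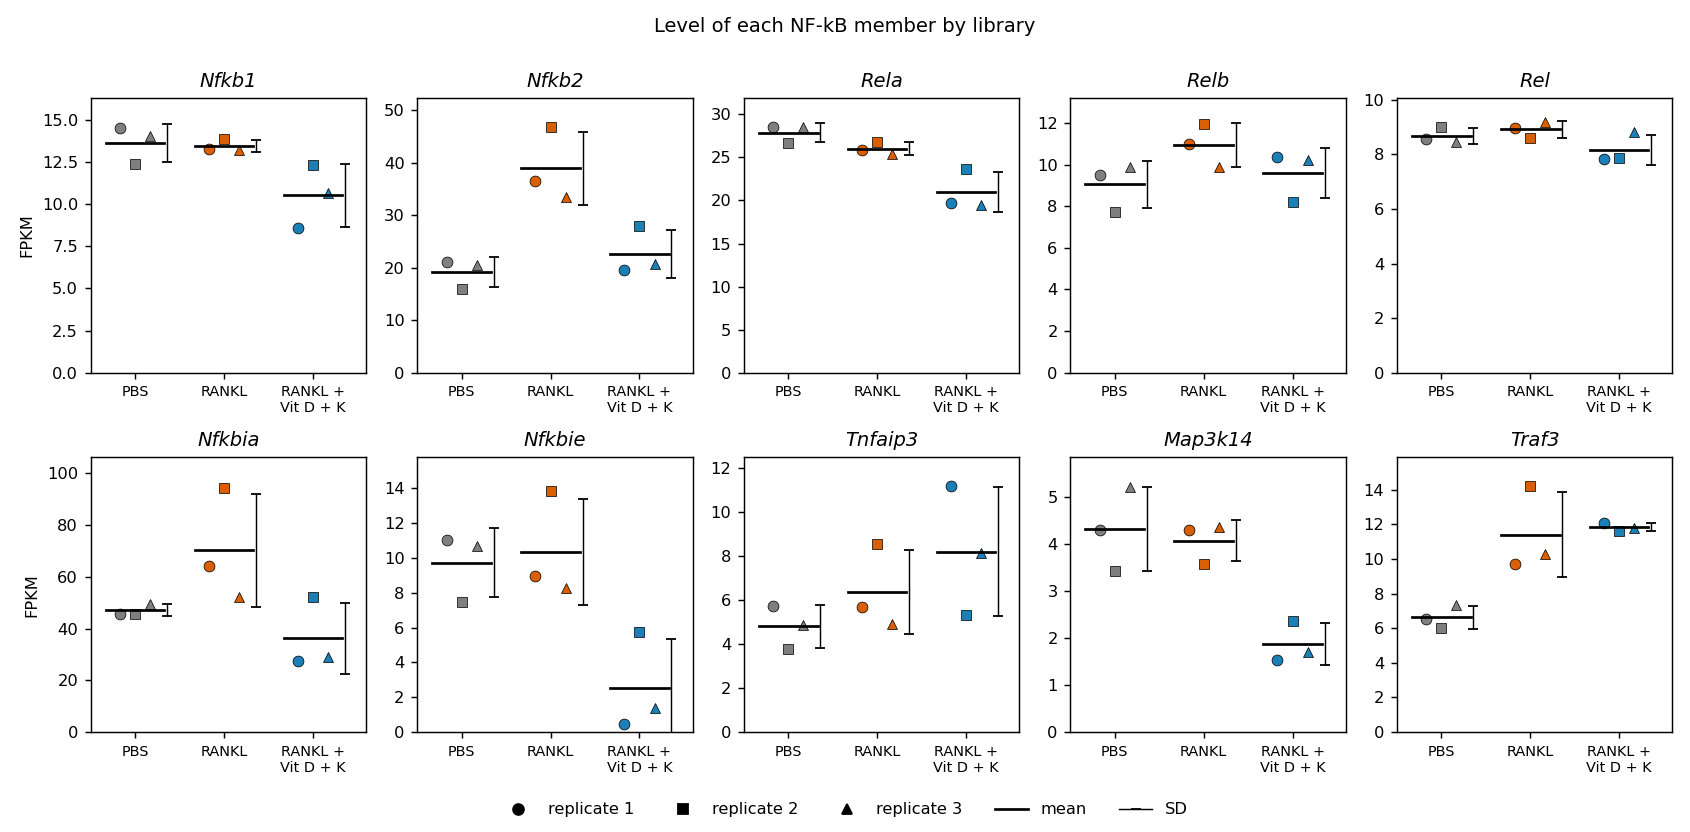
FPKM (linear axis from 0, a level per transcript length) of each of the 10 members in the 9 libraries, with the symbol giving the replicate number, the horizontal bar the group mean and the whisker the SD (n = 3), which for Nfkbie is drawn down to 0 only. Nfkb2 is high in the 3 RANKL libraries (33.4 to 46.9 FPKM), Map3k14 and Nfkbie are low in the 3 vitamin libraries, and the square of replicate 2 often lies away from the other libraries of the vitamin group.

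The comparison of RANKL with PBS asks how the members differed in cells sent towards osteoclasts. Only Nfkb2 changed past the threshold (adjusted p under 0.05 over all genes), rising 1.85-fold. Traf3 was higher by a similar margin just short of the threshold, and the other 4 subunits did not pass it. Among the 10 members 1 was higher and 0 lower, beside 2.35% and 1.26% of all genes tested, and 3 members had ranges of CPM (counts scaled to the library total) that did not overlap, beside 35.7% of all genes. The count of 0 lower members came from edgeR; at an unadjusted p under 0.05 it was 1 (Rela), and DESeq2 and limma gave 0. The median log2 fold change of the members was 0.05, beside -0.04 over all genes, and the median size of the change without its sign was 0.22 beside 0.31. Without RANKL replicate 2, 0 members were called in either direction, and without vitamin replicate 2, 2 were higher (Nfkb2 and Traf3). That fit tested 17806 genes, and the cause of the added call was not tested.

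Nfkb2 (chr19:46304320-46312385, plus strand), the precursor of the non-canonical subunit, stood at 21.1, 15.9 and 20.5 FPKM in the PBS libraries and at 36.6, 46.9 and 33.4 FPKM in the RANKL libraries. The lowest RANKL library was above the highest PBS library. The log2 fold change was 0.89 ± 0.16 (SE) with an adjusted p of 0.0199 (edgeR's quasi-likelihood test), and of 0.0376 with the replicate block. Without any 1 PBS library, RANKL replicate 1 or RANKL replicate 2 the adjusted p was between 0.0552 and 0.0714, with log2 fold changes from 0.78 to 1.02. Nfkb2 overlaps Psd and 4833438C02Rik on the other strand, counted 229 to 1542 times, and whether counting used the strand is not stated. Traf3 (chr12:111166370-111267153, plus strand), the adaptor that holds NIK low, stood at 6.54, 6.00 and 7.32 FPKM with PBS and at 9.71, 14.2 and 10.3 FPKM with RANKL. These ranges did not overlap either. Its log2 fold change of 0.65 ± 0.15 (SE) had an adjusted p of 0.0506 in edgeR's test. The value was 0.0027 with DESeq2, 0.0461 with median-of-ratios scaling, 0.0354 with the stricter filter and 0.0309 with limma on log2(FPKM + 1). By edgeR it was 0.0729 with the replicate block and 0.0594 with no filter. Traf3 was called in 2 of 9 edgeR fits with a library left out, where the highest adjusted p was 0.161. The side of the threshold thus depended on the test, the scaling, the filter and the libraries.

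The remaining subunits did not pass the threshold. Nfkb1 (chr3:135584655-135691546, minus strand), precursor of the canonical partner subunit, had 14.5, 12.4 and 14.0 FPKM with PBS and 13.3, 13.9 and 13.2 FPKM with RANKL. Its log2 fold change was -0.15 with a 95% interval of -0.41 to 0.12. Rela (chr19:5637483-5648130, plus strand), the main activating subunit of the canonical branch, had 28.5, 26.6 and 28.5 FPKM with PBS and 25.8, 26.8 and 25.4 FPKM with RANKL, which overlap on this scale but not in CPM; its log2 fold change was -0.23 with an adjusted p of 0.230 by edgeR. Relb (chr7:19606217-19629438, minus strand), the partner of processed Nfkb2, had 9.49, 7.74 and 9.90 FPKM with PBS and 11, 12 and 9.88 FPKM with RANKL, with overlapping ranges and a log2 fold change of 0.14 (95% interval -0.24 to 0.53). Rel (chr11:23736847-23770970, minus strand), the other activating subunit of the canonical branch, had the flattest profile, with 8.45 to 8.99 FPKM in PBS and 8.60 to 9.21 FPKM in RANKL. Its log2 fold change was -0.08 after TMM scaling and 0.04 on log2(FPKM + 1), so that its direction depended on the scaling.

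The inhibitors varied more between the RANKL libraries, with coefficients of variation of 29.5% to 31.1% for Nfkbia, Nfkbie and Tnfaip3 and of 2.68% to 18.1% for the 5 subunits, a difference that was not tested. Nfkbia (chr12:55489410-55492647, minus strand) encodes IkB alpha, which holds canonical dimers in the cytoplasm. It had 45.9, 45.7 and 49.7 FPKM with PBS and 64.1, 94.5 and 52.1 FPKM with RANKL. All 3 RANKL libraries were above the PBS libraries in FPKM, yet replicate 2 stood far above the other RANKL libraries, and the log2 fold change of 0.44 (95% interval -0.07 to 0.95) had an adjusted p of 0.348 by edgeR. Nfkbie (chr17:45555703-45563169, plus strand), which encodes IkB epsilon, had 11, 7.45 and 10.7 FPKM with PBS and 8.95, 13.8 and 8.25 FPKM with RANKL. The ranges overlapped throughout, and the 95% interval of its log2 fold change ran from -1.50 to 1.40. That interval rests on an estimate of the spread shared with the vitamin libraries. The coefficient of variation of Nfkbie was 111% there, 20.3% with PBS and 29.5% with RANKL. Tnfaip3 (chr10:19000910-19015410, minus strand), a ubiquitin-editing enzyme that shuts off signalling to IKK, had 5.75, 3.80 and 4.86 FPKM with PBS and 5.68, 8.54 and 4.93 FPKM with RANKL. Map3k14 (chr11:103219762-103267472, minus strand) had 4.31, 3.42 and 5.21 FPKM with PBS and 4.31, 3.57 and 4.35 FPKM with RANKL. Neither differed beyond the spread between libraries, with log2 fold changes of 0.27 for Tnfaip3 and -0.20 for Map3k14.

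The comparison of RANKL + Vit D + K with RANKL asks what the vitamins changed in RANKL-treated cells. Map3k14, Nfkbie, Nfkbia and Nfkb2 fell, by 2.0-fold, 3.89-fold, 1.77-fold and 1.56-fold, and no member rose past the threshold. Thus 4 of 10 members were lower and 0 higher, where 17.2% of all genes were lower and 16.4% higher, and 6 members had CPM ranges that did not overlap, beside 46.8% of all genes. The count of 0 higher members from edgeR was also 0 at an unadjusted p under 0.05, with DESeq2 and with limma. The median log2 fold change of the members was -0.19, beside -0.04 over all genes, and the median size without sign was 0.39 beside 0.60. Of all called genes 48.8% were higher by edgeR, 36.8% by limma on log2(FPKM + 1) and 48.2% with median-of-ratios scaling in edgeR, while the 4 called members were lower under all 4 other scalings and tools. Without vitamin replicate 2, 1 member was higher and 4 were lower, and without RANKL replicate 2, 0 were higher and 2 lower. The comparison shares its RANKL libraries with the previous one.

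Map3k14, which encodes NIK, had 4.31, 3.57 and 4.35 FPKM with RANKL and 1.53, 2.37 and 1.70 FPKM with the vitamins. Every vitamin library was below every RANKL library. The log2 fold change was -1.0 ± 0.20 (SE) with an adjusted p of 0.00644 by edgeR, and it was the only member called with each of the 9 libraries left out in turn, when the adjusted p was at most 0.0313. Nfkbie had 8.95, 13.8 and 8.25 FPKM with RANKL and 0.462, 5.72 and 1.39 FPKM with the vitamins. The 3 vitamin libraries were all lower than the RANKL libraries but differed greatly among themselves, from 106 counts in replicate 1 to 1344 in replicate 2. The log2 fold change was -1.96 ± 0.67 (SE, adjusted p = 0.0492 by edgeR). Without replicate 2 of the vitamin group it was -3.26 (adjusted p = 0.00046), and without any other library the call was lost, with log2 fold changes from -2.08 to -1.48 and adjusted p-values from 0.0677 to 0.161. The call was also lost with median-of-ratios scaling, with no filter on low counts and in a fit of only these groups, where the adjusted p by edgeR was 0.0507, 0.0810 and 0.102.

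Nfkbia had 64.1, 94.5 and 52.1 FPKM with RANKL and 27.5, 52.1 and 29.2 FPKM with the vitamins, so that the highest vitamin library was just below the lowest RANKL library. The log2 fold change was -0.82 ± 0.23 (SE, adjusted p = 0.0225 by edgeR). It was -0.70 without vitamin replicate 1, -0.71 without vitamin replicate 3, -0.86 without RANKL replicate 1 and -0.60 without RANKL replicate 2, with adjusted p-values from 0.0559 to 0.0998, and -1.08 without vitamin replicate 2. In a fit of only these groups it was -0.83 with an adjusted p of 0.0644 by edgeR. Nfkb2 had 36.6, 46.9 and 33.4 FPKM with RANKL and 19.5, 27.9 and 20.7 FPKM with the vitamins, and the groups did not overlap. The log2 fold change was -0.64 ± 0.16 (SE, adjusted p = 0.0144 by edgeR). It was -0.59 without vitamin replicate 1 and -0.60 without vitamin replicate 3, with adjusted p-values of 0.0562 and 0.0660.

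Nfkb1 and Rela lay slightly lower with the vitamins and did not pass the threshold. Nfkb1 had 8.61, 12.3 and 10.7 FPKM with the vitamins, all below the 13.2 to 13.9 FPKM of RANKL, with a log2 fold change of -0.22 (95% interval -0.48 to 0.04). Rela had 19.7, 23.6 and 19.5 FPKM with the vitamins, all below the 25.4 to 26.8 FPKM of RANKL; the log2 fold change was -0.17 with an adjusted p of 0.183 by edgeR and -0.31 with an adjusted p of 0.0305 by limma on log2(FPKM + 1). Relb had 10.3, 8.22 and 10.2 FPKM and Rel 7.82, 7.86 and 8.81 FPKM with the vitamins, and both overlapped RANKL. Their log2 fold changes were -0.03 (95% interval -0.41 to 0.36) and 0.02 (95% interval -0.24 to 0.28), and that of Rel was -0.12 on log2(FPKM + 1). Tnfaip3 had 11.2, 5.31 and 8.15 FPKM with the vitamins against 4.93 to 8.54 FPKM with RANKL. The groups overlapped, and the log2 fold change of 0.55 had an adjusted p of 0.208 by edgeR; without vitamin replicate 2 it was 0.83 with an adjusted p of 0.0228. Traf3 had 12.1, 11.6 and 11.8 FPKM with the vitamins, inside the RANKL range, and a log2 fold change of 0.21 (95% interval -0.13 to 0.55).

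The comparison of RANKL + Vit D + K with PBS shows where the members stood relative to untreated cells. Map3k14, Nfkbie, Rela and Nfkb1 were lower and Traf3 was higher, while Nfkb2 and Nfkbia did not differ past the threshold. With 1 member higher and 4 lower, the shares stand beside 19.8% and 21.0% of all genes, and 6 members had CPM ranges that did not overlap, beside 53.1% of all genes. The median log2 fold change was -0.21, beside -0.04 over all genes, and the median size without sign was 0.39 beside 0.67. Without vitamin replicate 2, 2 members were higher and 5 lower, and without RANKL replicate 2, 1 was higher and 3 lower.

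Traf3 was 1.82-fold higher than with PBS, with a log2 fold change of 0.86 ± 0.15 (SE, adjusted p = 0.0025 by edgeR), and was called whichever library was left out. Its 3 vitamin libraries, at 11.6 to 12.1 FPKM, lay well above the 6.00 to 7.32 FPKM of PBS. Map3k14 was 2.30-fold lower, with a log2 fold change of -1.20 ± 0.20 (SE, adjusted p = 0.00204 by edgeR), and was likewise called without any 1 library. The kinase and the adaptor that sends it for degradation thus lay on opposite sides of PBS. Nfkbie was 4.03-fold lower, with a log2 fold change of -2.01 ± 0.67 (SE, adjusted p = 0.0392 by edgeR), but the call held in only 1 of 9 fits with a library left out, the fit without vitamin replicate 2, where it was -3.31. In the others the log2 fold change ran from -2.12 to -1.47 and the adjusted p from 0.0539 to 0.139, and with no filter on low counts and in a fit of only these groups the adjusted p by edgeR was 0.0717 and 0.0793.

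Rela was 1.32-fold lower than with PBS, with a log2 fold change of -0.40 ± 0.09 (SE, adjusted p = 0.00895 by edgeR). All 3 vitamin libraries, at 19.5 to 23.6 FPKM, were below the 26.6 to 28.5 FPKM of PBS, and without PBS replicate 1, PBS replicate 3 or vitamin replicate 3 the log2 fold change was -0.31 to -0.33 and the adjusted p 0.0643 to 0.0672. Nfkb1 was 1.29-fold lower, with a log2 fold change of -0.36 ± 0.12 (SE, adjusted p = 0.0330 by edgeR). Its highest vitamin library, 12.3 FPKM, was just under the lowest PBS library, 12.4 FPKM. Without PBS replicate 1, PBS replicate 3, vitamin replicate 1, vitamin replicate 3, RANKL replicate 1 or RANKL replicate 3 the adjusted p of Nfkb1 was 0.0558 to 0.185, with log2 fold changes of -0.36 to -0.22. Its call was also lost with no filter on low counts and in a fit of only these groups by edgeR, where the adjusted p was 0.0673 and 0.0677, and with limma on log2(FPKM + 1), where it was 0.0511. Nfkb2 lay at 19.5 to 27.9 FPKM with the vitamins and 15.9 to 21.1 FPKM with PBS, with a log2 fold change of 0.25 (95% interval -0.10 to 0.60). Nfkbia lay at 27.5 to 52.1 FPKM and 45.7 to 49.7 FPKM, with a log2 fold change of -0.38 (95% interval -0.89 to 0.13); without vitamin replicate 2 it was -0.64 with an adjusted p of 0.0203. Tnfaip3 had a log2 fold change of 0.82 and an adjusted p of 0.0656 by edgeR, against 0.0301 with DESeq2, and without vitamin replicate 2 it was 1.10 with an adjusted p of 0.00571. Relb and Rel had log2 fold changes of 0.12 and -0.06.

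**Figure D2:**
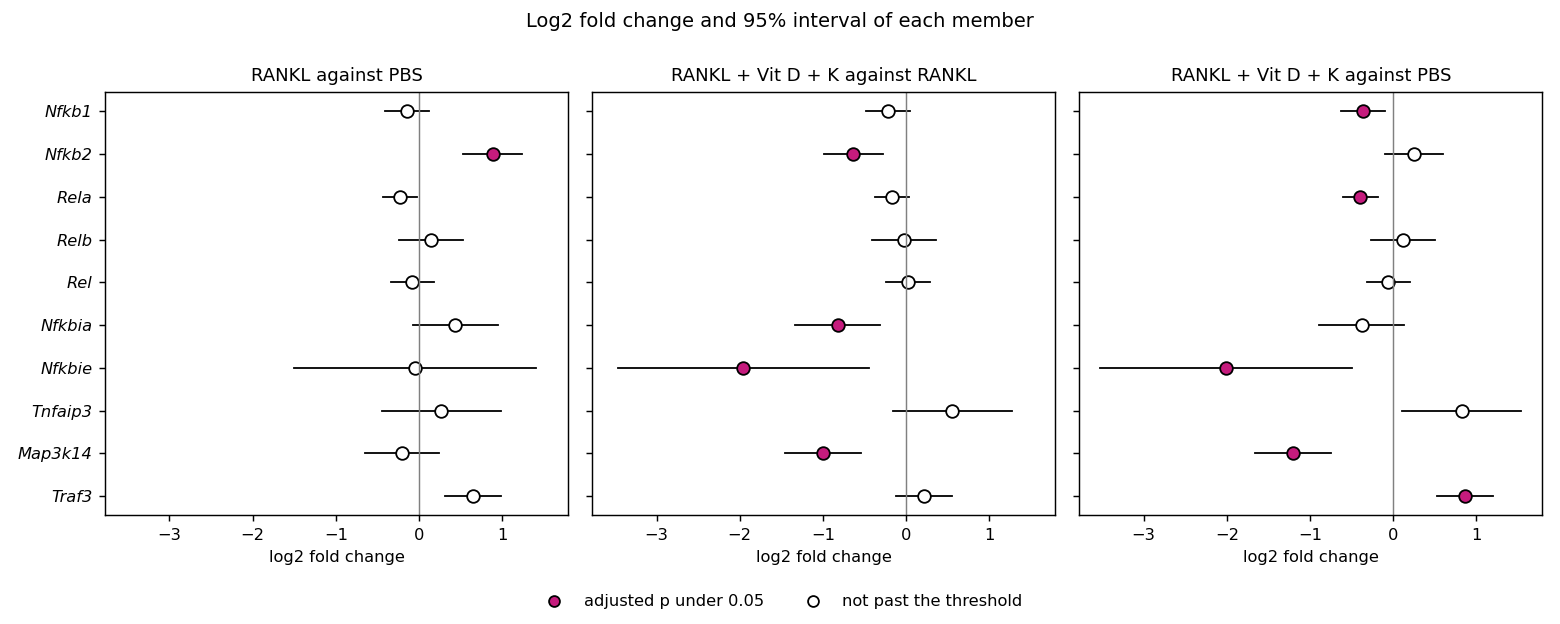
Log2 fold change (points) and 95% interval (lines) of each of the 10 members in the 3 comparisons by edgeR's quasi-likelihood test, with filled points where the adjusted p over all 17002 genes was under 0.05. Nfkb2 is the filled point right of 0 with RANKL, 4 members are filled left of 0 when the vitamins are added, and Nfkbie has the widest interval in every panel.

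Ratios between members of the same library do not depend on the scaling between libraries. The log2 ratio of Nfkb2 to Nfkb1, the precursors of the non-canonical and the canonical branch, was 0.54, 0.36 and 0.55 with PBS, 1.46, 1.75 and 1.34 with RANKL, and 1.18, 1.18 and 0.95 with the vitamins. The 3 groups did not overlap, with RANKL highest and the vitamin group between the others. The mean difference was 1.03 for RANKL against PBS, -0.41 for the vitamins against RANKL and 0.62 for the vitamins against PBS, each with p = 0.1 in an exact two-sided permutation test, the smallest p that 3 libraries against 3 can give. Over the 12 ratio tests the adjusted p of these was 0.15, so that no ratio could pass 0.05 by this test.

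The log2 ratio of Relb to Rela was -1.59, -1.78 and -1.52 with PBS and -1.23, -1.16 and -1.36 with RANKL, a difference of 0.38 with no overlap (p = 0.1, exact permutation test). With the vitamins it was -0.93, -1.52 and -0.93, where replicate 2 lay at the upper edge of PBS, just above its highest library. The difference from RANKL was 0.13 with overlapping ranges (p = 0.6, exact permutation test), and that from PBS was 0.50 with no overlap (p = 0.1, exact permutation test). The log2 ratio of Rel to Rela overlapped between groups in all 3 comparisons, with mean differences of 0.14, 0.19 and 0.33. The log2 ratio of Nfkbie to Nfkbia was -2.06, -2.62 and -2.22 with PBS, -2.84, -2.77 and -2.66 with RANKL and -5.90, -3.18 and -4.40 with the vitamins. Here the groups did not overlap, and the epsilon inhibitor was lower relative to the alpha inhibitor, with differences of -0.46 for RANKL against PBS and -1.74 for the vitamins against RANKL on the log2 scale (each p = 0.1, exact permutation test).

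**Figure D3:**
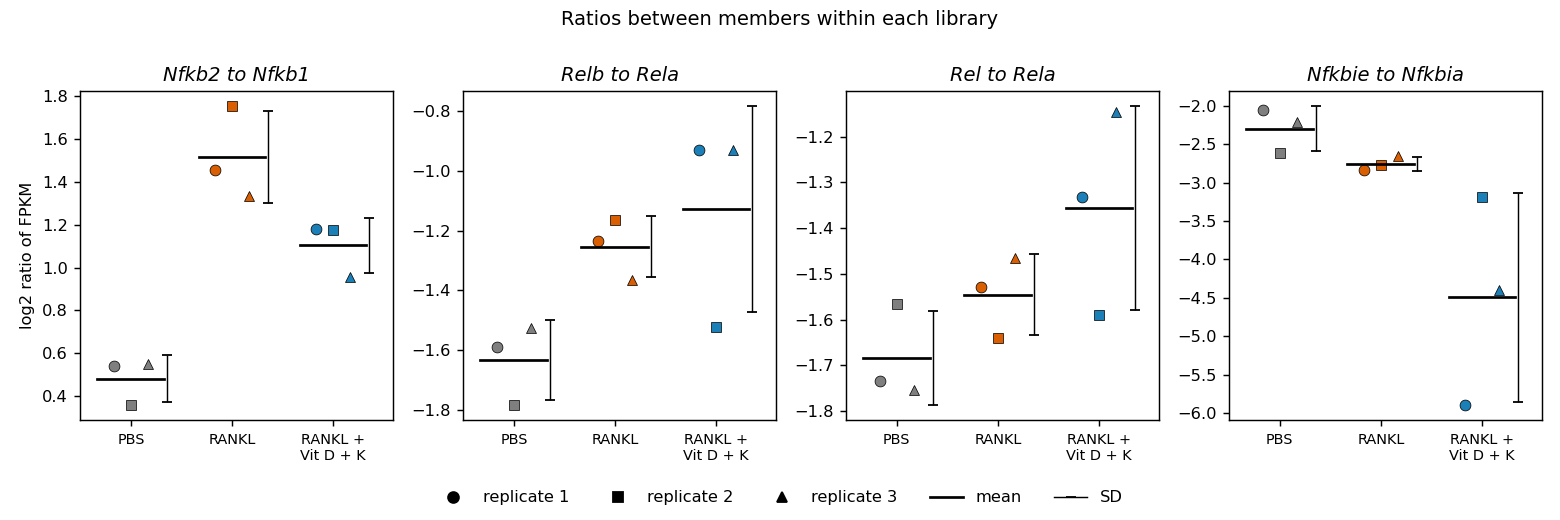
Log2 ratio of the FPKM of 2 members within each library (vertical axes differ between panels and do not start at 0), with the symbol giving the replicate number, the bar the group mean and the whisker the SD (n = 3). The ratio of Nfkb2 to Nfkb1 separates the 3 groups, and the ratio of Nfkbie to Nfkbia in the vitamin group runs from -5.90 to -3.18.

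The kinases, adaptors, further inhibitors and targets of the pathway were read from the same fit. With RANKL against PBS, 0 of 10 genes of the IKK complex and its kinases changed by edgeR, where 0 were higher and 1 was lower at an unadjusted p under 0.05 and DESeq2 and limma called none. Of 13 receptor, adaptor and ubiquitin ligase genes 2 rose and 0 fell by edgeR. At an unadjusted p under 0.05 2 were lower, and DESeq2 and limma called none lower. DESeq2 called 4 higher. By edgeR 4 were higher and 2 lower without vitamin replicate 2, and 1 was higher and 0 lower without RANKL replicate 2. Traf1, an adaptor that is itself an NF-kB target, stood at 1.12, 0.876 and 0.869 FPKM with PBS and at 11.5, 15 and 10.6 FPKM with RANKL, a log2 fold change of 3.55 ± 0.21 (SE, adjusted p = 0.00013 by edgeR). Traf2, the adaptor that works with Traf3 on NIK, rose by 0.67 on the log2 scale (adjusted p = 0.0427 by edgeR). Of 19 other inhibitors 1 rose, Tank, a Traf-binding protein, with a log2 fold change of 0.73, and 0 fell by edgeR, where 3 were lower at an unadjusted p under 0.05, 2 with DESeq2 and 0 with limma. The shares over all genes were 2.35% higher and 1.26% lower. The list of NF-kB target genes held neither Traf1 nor the members. Of its 25 tested genes 2 fell and 0 rose by edgeR, where 1 was higher at an unadjusted p under 0.05, with DESeq2 and with limma. Those that fell were the surface glycoprotein Cd83 and the stress gene Ier3, with log2 fold changes of -2.10 and -1.97. With the replicate block 3 fell: the cytokine Il1b, at 5.22, 1.36 and 20.7 FPKM with PBS and 0.992, 0.213 and 3.40 FPKM with RANKL, was lower in each same-numbered pair, and its adjusted p by edgeR was 0.00597 with the block and 0.296 without it. Traf2, Tank, Cd83 and Ier3 each lost their call without at least 1 library, with highest adjusted p-values of 0.141, 0.0582, 0.0723 and 0.0831.

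With the vitamins against RANKL, 3 of the 10 IKK genes rose and 1 fell, where 16.4% of all genes were higher and 17.2% lower, so that the share called was near that of all genes. The kinase subunit Chuk, which acts on Nfkb2, stood at 11.9, 13.7 and 12.8 FPKM with RANKL and 19, 17.3 and 16.7 FPKM with the vitamins, a log2 fold change of 0.62 (adjusted p = 0.00531 by edgeR). The adaptor Tab3 and the scaffold Ikbkg had log2 fold changes of 0.80 and 0.55, and the IKK-related kinase Ikbke fell by 1.99 on the log2 scale, from 12.4 to 17.7 FPKM down to 1.85 to 5.85 FPKM. Of the 13 receptor and adaptor genes 2 rose (Ripk1 by 0.77 and Traf6 by 0.76 on the log2 scale) and 5 fell. Birc2 and Birc3, the ubiquitin ligases that act on NIK with Traf2 and Traf3, had log2 fold changes of -0.71 and -0.84 (adjusted p = 0.00278 and 0.0036 by edgeR), Traf1 of -1.11, Traf5 of -0.63, and Tnfrsf11a, which encodes the receptor RANK, of -1.08.

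Of the 19 other inhibitors 4 rose and 4 fell with the vitamins, shares near the 16.4% and 17.2% of all genes. Nfkbib, the gene of IkB beta, rose by 1.02 on the log2 scale, from 9.40, 10.4 and 8.14 FPKM to 20.1, 12.5 and 17.7 FPKM, while the nuclear IkB-like genes Bcl3 and Nfkbid had log2 fold changes of -2.41 and -1.95. The IkB genes therefore did not move as a block: Nfkbia and Nfkbie were lower and Nfkbib higher in the same libraries. Tax1bp1 and Tnip1, which encode partners of the Tnfaip3 protein, and the deubiquitinase Otud7b had log2 fold changes of 1.53, 0.90 and 0.57, and the ubiquitin regulators N4bp1 and Cyld of -0.52 and -0.34.

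Of the 25 tested NF-kB targets 8 rose and 10 fell with the vitamins, beside 16.4% and 17.2% of all genes. The median log2 fold change over the 25 was 0.61, beside -0.04 over all genes, although more of them were called lower than higher. The chemokines Ccl3 and Ccl4 rose most, Ccl3 from 19.2, 16.5 and 9.57 FPKM to 455, 116 and 324 FPKM, a log2 fold change of 4.51 ± 0.58 (SE, adjusted p = 0.00113 by edgeR), and Ccl4 by 4.50. Ptgs2, the inducible cyclooxygenase, and the chemokine Cxcl2 had log2 fold changes of 3.93 and 3.29. The cytokine Il1b was at 0 counts in all vitamin libraries and at 142, 32 and 506 counts with RANKL, at least 74.5-fold lower with the vitamins (floor of 3 counts in each library) and at least 29.0-fold without RANKL replicate 3, which held most of its counts. The iron-binding lipocalin Lcn2, the adhesion molecule Vcam1 and the chemokine Cxcl10 had log2 fold changes of -5.22, -4.93 and -4.74. Targets of the pathway thus lay on both sides of RANKL in the same libraries in which 4 members were lower. No gene called in these lists changed sign under the 4 other scalings and tools, but limma on log2(FPKM + 1) called 2 of the other inhibitors higher and 6 lower, where edgeR called 4 and 4. Tab3, Ikbkg, Ripk1, Traf6, Traf5, Tnfrsf11a, Tnip1, Otud7b, N4bp1 and Cyld each lost their call without at least 1 library, with highest adjusted p-values between 0.0572 (Traf6) and 0.179 (Traf5).

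Against PBS, the vitamin group had 2 IKK genes higher and 3 lower, 2 receptor and adaptor genes higher and 2 lower, 6 other inhibitors higher and 4 lower, and 9 targets higher and 10 lower, beside 19.8% of all genes higher and 21.0% lower. Ikbkb, the kinase that marks the IkB proteins, was lower than with PBS by a log2 fold change of -0.55 (adjusted p = 0.01 by edgeR), Ikbke by -2.69 and Map3k7, the kinase upstream of IKK, by -0.27. Chuk was higher by 0.43 and Tab3 by 0.70. Traf1 and Traf2 remained above PBS, with log2 fold changes of 2.44 and 0.62, and Sharpin, of the linear ubiquitin ligase, and Birc2 were below it by log2 fold changes of -0.88 and -0.34. The other inhibitors that lay highest were Tax1bp1, Nfkbib, Tank and Commd1, with log2 fold changes of 1.45, 1.11, 1.0 and 0.80, and those that lay lowest were Bcl3, Nfkbid, Nfkbiz and N4bp1, with -2.32, -1.31, -1.02 and -0.72. Among the targets Ptgs2, Ccl2, Ccl4 and Il1a were higher by 4.13, 3.97, 3.30 and 3.09 on the log2 scale, and Saa3, Lcn2 and Cxcl10 were lower, with log2 fold changes of -5.60, -4.91 and -4.21. Il1b, at 735, 196 and 2954 counts with PBS, was at least 438-fold lower, and at least 157-fold without PBS replicate 3. Ccl2, a chemokine at 1.34, 40.4 and 1.96 FPKM with the vitamins, had an adjusted p of 0.043 by edgeR, and without vitamin replicate 2 its log2 fold change was 1.02 with an adjusted p of 0.351, and the calls of Tab3, Map3k7, Birc2, Nfkbid, Nfkbiz and N4bp1 were also lost without at least 1 library.

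**Figure D4:**
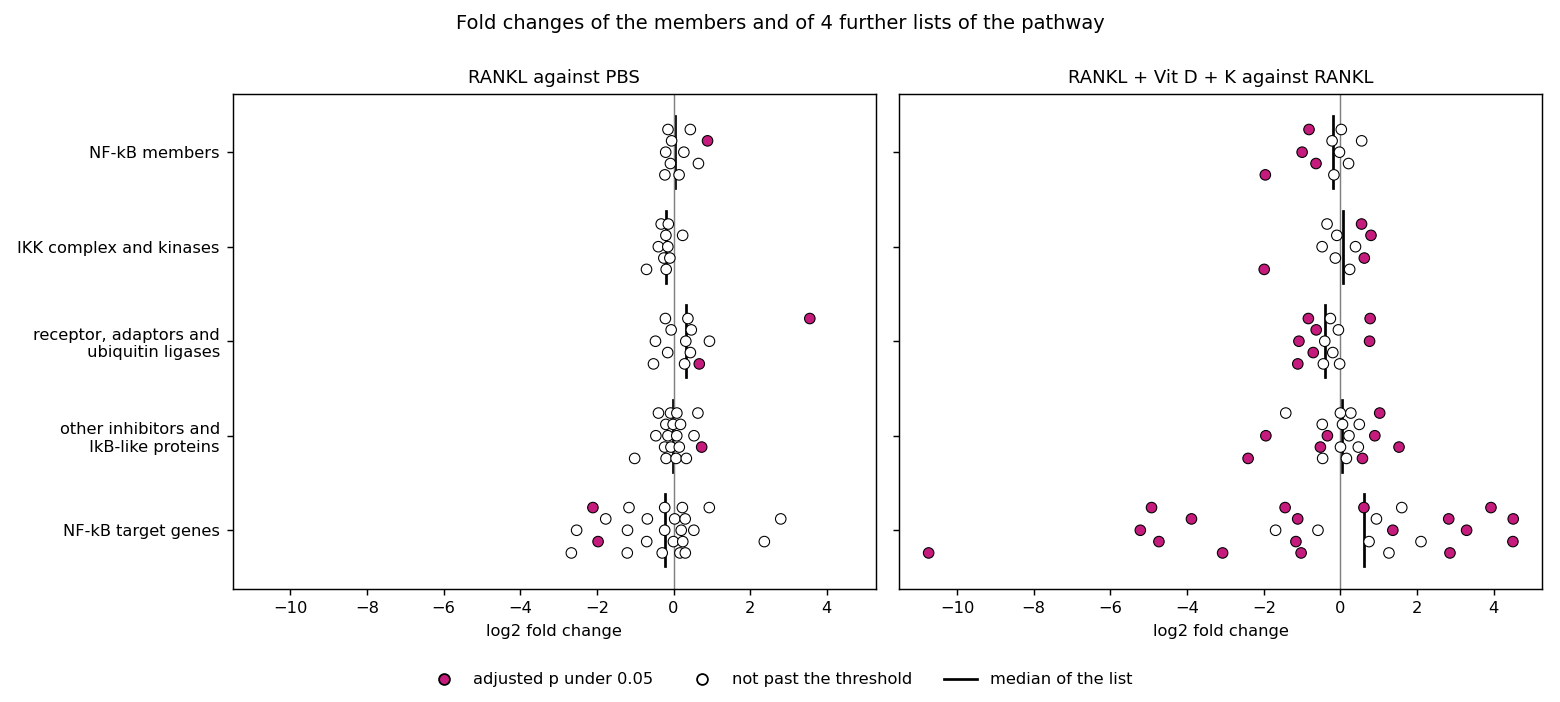
Log2 fold change (horizontal axis) of the 10 members and of the tested genes in 4 further lists of the pathway, for RANKL against PBS (left) and RANKL + Vit D + K against RANKL (right), with filled points for an adjusted p under 0.05 and a vertical bar at the list's median. Few points are filled on the left, and on the right the target genes lie on both sides of 0, with the fitted value of Il1b, at 0 counts with the vitamins, farthest left.

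For each member called in at least 1 comparison, the 2 genes with the most similar profile over the 9 libraries were found, by the root mean square difference of log2 CPM centred on each gene's mean. Rela was nearest to Dicer1 (0.0421) and Atxn7l3 (0.0459) and Nfkb1 to Kdm2a (0.0567) and Ube2d1 (0.0615), where the median over all genes was 0.541 for Rela and 0.545 for Nfkb1. Map3k14 was nearest to Chsy1 (0.0877) and H2aj (0.0938), Traf3 to Heatr3 (0.118) and Hspe1 (0.119), Nfkb2 to Gm14548 (0.130) and Slc4a7 (0.145), and Nfkbia to Samd1 (0.131) and Mrpl18 (0.137). Nfkbie had the widest profile and the least close neighbours, 9430037G07Rik (0.186) and Gm47798 (0.243). The closest other member to Nfkb1 was Rela, at 0.0930, to Traf3 it was Tnfaip3, at 0.323, and to Nfkb2 it was Nfkbia, at 0.331. These values describe the libraries at hand, which share their groups, and carry no test.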

How the data were processed

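Poly(A)-selected RNA was sequenced as paired reads on an Illumina NovaSeq, and the authors deposited 1 table with whole-number counts per gene, not normalized, and FPKM values, which the authors scaled for transcript length and library. Per the labels, the submitters' processing notes name cutadapt 1.9, HISAT2 2.0.4, StringTie 1.3.4d and edgeR, with no role given, and the build hg38, a human one. The gene IDs and coordinates in the table are mouse and correspond to GRCm38, which is used here. Whether counting used the strand or split reads between similar genes is not given in the sources used here. Floors (3 counts, at most 4.55e-06% of a library) cover counting error only, while the 95% intervals of fold changes come from the fit and include the spread between libraries.

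Libraries were grouped by their labels. Counts were filtered with filterByExpr, scaled by TMM (factors 0.89 to 1.11) and tested with edgeR 4.0.16 in R 4.3.3 by its quasi-likelihood test, all 9 libraries sharing 1 estimate of the spread. P-values of the 17002 genes tested were adjusted after Benjamini and Hochberg, with a threshold of 0.05. The script was tested on simulated counts. Gene levels were compared with each other in FPKM only. Alternatives were DESeq2 1.42.0, limma 3.58.1 on log2(FPKM + 1) and log2(FPKM + 0.1), whose fold changes understate those of low genes, other scaling and filters (the stricter one asked for 10 counts and a mean CPM of 1), only the groups compared, a replicate block, and leaving out each library in turn. Log2 ratios between members were compared by exact permutation tests (scipy 1.17.1). Similar profiles used log2 CPM with a prior count of 2. Marker lists for T cells, B cells, dendritic, stromal and erythroid cells were also read: 0 T cell and 0 erythroid markers passed the filter, and with the vitamins against RANKL 1 of 1 tested B cell, 1 of 4 dendritic and 1 of 4 stromal markers were lower and none higher by edgeR, where DESeq2 and limma on either FPKM scale called 4 of 4 dendritic markers lower and the stromal count was 1 with DESeq2 and 0 with limma.

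Named were all 10 members, up to 4 genes of each further list in each direction with the largest change past the threshold, and the 2 closest profiles per called member; Traf5 and, for RANKL against PBS, Il1b, outside this rule, were named after their values were seen. Members and lists were chosen with earlier results of these data known. For RANKL against PBS, libraries with the same replicate number deviated together (correlations of deviations from the group means 0.122 to 0.219, 6 of 6 libraries best with their own number). The numbers were taken as pairs there only in the fit with the replicate block, a pairing that comes from the data and not from the labels. All other p-values of that comparison come from fits without pairs.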

Additional observations from a re-analysis of the deposited data

How the results depend on the processing

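Of 510 refitted log2 fold changes of the members, 429 kept their direction and side of the threshold, 45 fell short of it, 14 newly passed it and 22 turned their direction; all 96 alternative values of the log2 ratios kept their direction. The cause of the changes below was not tested. For RANKL against PBS, 614 genes were called, 1706 by DESeq2 and 1736 in a fit of only those groups, and from 126 to 1903 with 1 library left out. Called members numbered 1, and 2 (Nfkb2 and Traf3) by DESeq2, by limma on log2(FPKM + 0.1) or log2(FPKM + 1), with median-of-ratios scaling, with the stricter filter and in the fit of only those groups, and 0 to 2 with 1 library left out. For the vitamins against RANKL, 5725 genes were called, and 3199 to 8259 with 1 library left out; 4 members were called, 2 in the fit of only those groups, and 1 to 5 with 1 library left out. For the vitamins against PBS, 5 members were called, 3 with no filter or in the fit of only those groups, and 2 to 7 with 1 library left out.

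Directions turned only where a member was not called. Its log2 fold change was then near 0 in the fit of all libraries, except for Map3k14 with RANKL against PBS, at -0.20. With RANKL against PBS, Rel was 0.040 on log2(FPKM + 0.1) and 0.036 on log2(FPKM + 1), and Nfkbie was 0.073 and 0.068 on the same scales, 0.014 with no filter and 0.0077 in the fit of only those groups; with 1 library left out, Nfkbie ran from -0.27 to 0.11 and Map3k14 from -0.31 to 0.020. With the vitamins against RANKL, Rel was -0.13 on log2(FPKM + 0.1), -0.12 on log2(FPKM + 1), -0.017 with no filter and -0.0078 with the stricter filter; with 1 library left out Relb ran from -0.13 to 0.13 and Rel from -0.058 to 0.11. Against PBS, Rel ran from -0.086 to 0.031. On log2(FPKM + 0.1) the median of all genes moved by 0.11 for RANKL against PBS and by -0.12 for the vitamins against RANKL.

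The replicate block gave 825, 5873 and 7041 called genes in the 3 comparisons and changed no call of a member; for Traf3 with RANKL against PBS the blocked adjusted p was 0.0729. In the comparisons with the vitamin group the numbers paired less, with correlations of 0.00625 to 0.107 against RANKL and -0.0216 to 0.0237 against PBS, and 4 of 6 libraries best with their own number, so the samples share only a number there.

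Each member had at least 106 counts in every library. Vitamin replicate 2 differed from replicates 1 and 3 by a median of 0.570 and 0.461 on the log2 scale, against 0.224 between those. Filters on low counts and fits of only the compared groups also change which genes are tested.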
